A study of Capra hircus with 6 samples.

Results

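Genes of fatty acid, sterol and sebum lipid synthesis were followed in goat skin, as a list of 39 genes matched to the deposited table by gene symbol. Of these, 36 were present among 26951 named genes, and 35 had enough reads to be tested; the exception was AWAT2, a wax ester synthase, with 8, 1 and 2 reads in the black and 3, 3 and 4 reads in the white libraries. The symbols IDI1, CYP51A1 and MOGAT2 were not among the gene names used, and genes whose descriptions carry those enzyme names are given separately and not counted. Total RNA depleted of ribosomal RNA was sequenced from skin with its hair follicles, taken from animals bred from Boer and Macheng Black goats that have a dark head and a pale trunk. Each coat region gave 3 libraries, numbered 1 to 3 for black-coated and 4 to 6 for white-coated skin, and values of single libraries follow that order. The labels give no age, sex or body site. The design text speaks of a single goat, which the Y-linked reads given below contradict, and the number of animals is not known. Therefore coat colour and body site cannot be told apart, and a p-value reflects only how these samples vary, in part perhaps for technical reasons. Levels are given in CPM, reads scaled to a common TMM-adjusted library size, and log2 fold changes are black-coated over white-coated skin with their standard error (SE).

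Skin makes much of its own lipid. Fatty acids are built from citrate-derived acetyl-CoA by ACLY, ACACA and FASN, desaturated by SCD and lengthened by the ELOVL elongases, while sterols are built from acetyl-CoA through mevalonate and squalene. SREBF1 and SREBF2 encode the membrane-bound transcription factors that drive both pathways, with SREBF2 acting mostly on sterol genes. Sebaceous glands, which open into the hair follicle, turn these lipids into triglycerides, wax esters and sterol esters, and the upper epidermis uses very long acyl chains for the ceramides of the water barrier. In a bulk sample, fewer cells of a type and less RNA per cell cannot be told apart.

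Reads in named genes numbered between 12648817 and 22085079 per library. Black replicate 1 stood apart, with a first principal component score of -116 against 2.82 to 33.9 in the other 5 libraries, and the 8 tested hair shaft and inner root sheath markers summed to 909 CPM in it against 14605 and 19193 CPM in the other black libraries and 13746 to 16619 CPM in the white ones. The macrophage markers (9 present of 10 listed) summed to 1162, 523 and 175 CPM in the black libraries, against 259.9 to 269 CPM in the white libraries. Reads of the Y-linked gene LOC108634721 numbered 1, 688 and 0 in the black libraries, against 934, 801 and 767 in the white libraries, so more than 1 animal gave black-coated skin, and coat colour and Y-linked reads are partly confounded. Melanocyte markers checked the labels: 9 of 9 had a higher fitted level in the black libraries, with sums of 57.9, 934 and 1134 CPM against 15.2 to 19.5 CPM in the white ones. Black replicate 1 was thus above the white libraries but far below the other black ones.

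No member passed edgeR's quasi-likelihood test of black over white adjusted over all 15778 genes tested, a test that called 0% of all genes. It called 0 of the 9 melanocyte markers, whose median log2 fold change was 7.85, so a missing call does not show an absence of change. The adjusted p was 0.834 for SCD and ACSM5 and 1 for the other 33 members. At an unadjusted p under 0.05 there were 2 members with a higher level in black-coated skin (5.71% of the 35), against 1.65% of all genes tested, and these were SCD and ACSM5. ACSM5 had enough reads to be tested only through its black libraries. The elongases ELOVL1, ELOVL4 and ELOVL7 were the 3 with a lower level (8.57%), against 1.75% of all genes. Over the 35 members, 20 had a log2 fold change above 0, against 53% of all genes. DESeq2, which called 0.496% of the genes it adjusted, called SCD and ACSM5. Unadjusted, it placed ELOVL6 beside them among 3 higher members (2.46% of all genes) and found the same 3 elongases lower (2.09%). Limma-voom called 0 members and 0% of all genes, with 2 members higher (1.2%) and 3 lower (2.09%) unadjusted. With library quality weights it called 0 members and 0.019% of all genes, with 4 members higher (2.8%) and 6 lower (3.47%) unadjusted.

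Single libraries moved these counts. Without black replicate 1 edgeR placed 9 members higher and 4 lower at an unadjusted p under 0.05, against 4.77% and 5.28% of all genes, and called 0 members and 0.0999% of all genes. Those higher were SCD, ACSM5, FADS1, SREBF1, SREBF2, MVD, FDPS, NSDHL and DHCR7. Without black replicate 2 there were 5 higher (SCD, ACSM5, ACACA, FASN and ELOVL6) and 2 lower, against 2.56% and 1.93% of all genes, with 0.0369% of all genes called. Without black replicate 3 there were 3 higher and 3 lower, against 4.79% and 2.38%. Without white replicates 4, 5 and 6 in turn the lower members numbered 0, 0 and 1, against 1.13%, 1.15% and 1.01% of all genes. The log2 fold changes of the 3 elongases moved little in these fits. They were -0.67, -0.67 and -0.72 for ELOVL1 (-0.68 with all libraries) and -1.20, -1.18 and -1.13 for ELOVL4 (-1.17). For ELOVL7 they were -0.82, -0.63 and -0.71 (-0.72).

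**Figure D1:**
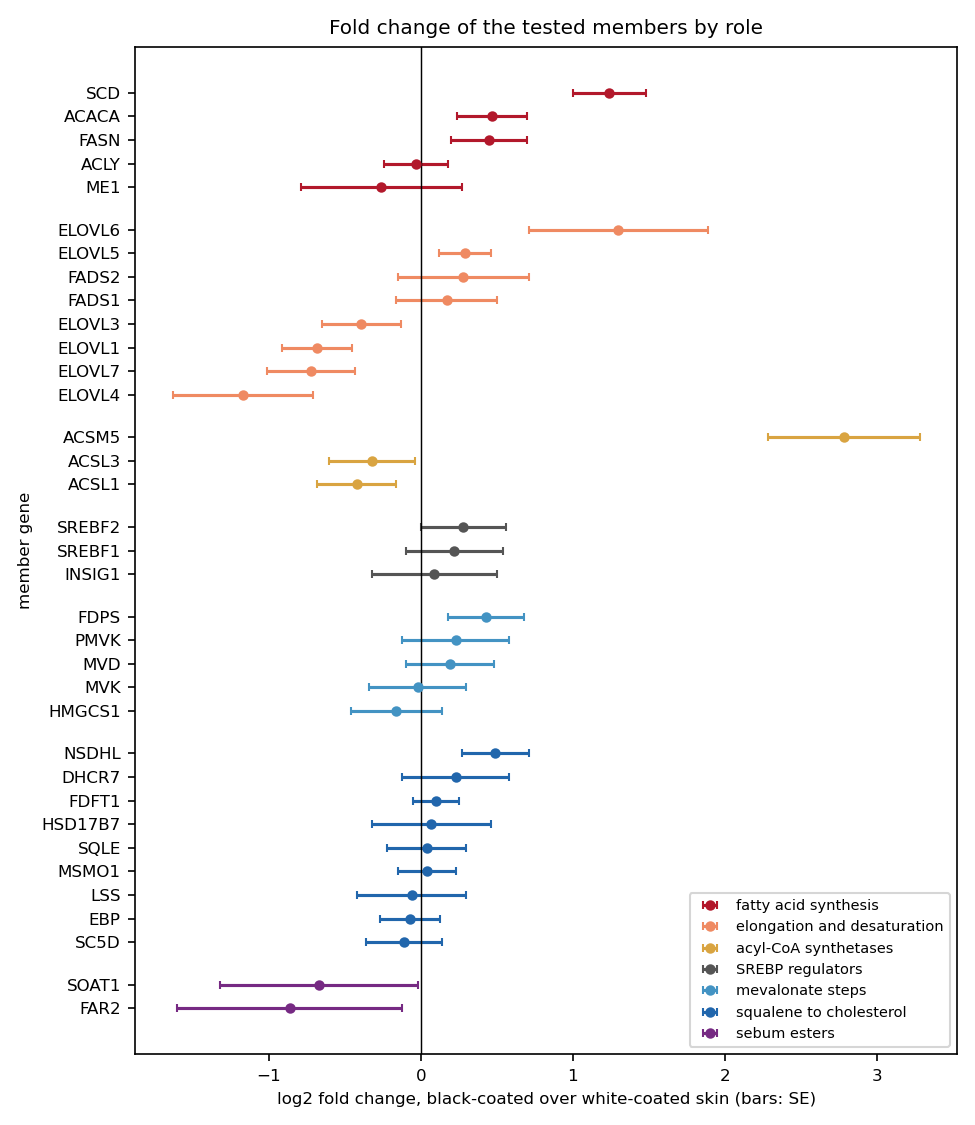
Log2 fold change of black-coated over white-coated skin (x axis, bars are SE) for the 35 tested members (y axis), grouped by role. ACSM5 at 2.78, ELOVL6 at 1.30 and SCD at 1.24 lie farthest to the right, ELOVL4 at -1.17 farthest to the left, and the 14 sterol genes lie between -0.16 and 0.49.

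The sterol regulators had means in the 2 coat regions that differed by less than their spread. SREBF2, which encodes the transcription factor acting mostly on sterol genes, stood at 158, 306 and 288 CPM in the black libraries, against 183, 219.7 and 218 CPM in the white libraries (log2 fold change 0.28, SE 0.28). Its relative SREBF1 stood at 38.2, 78.2 and 80.2 CPM against 62.2, 42.4 and 64.9 CPM (log2 fold change 0.22, SE 0.32). In both genes black replicate 1 was the lowest of the 6 libraries and the other black libraries were the highest, so that the groups overlapped only through black replicate 1. Without it the log2 fold change was 0.52 for SREBF2 (edgeR unadjusted p = 0.0133) and 0.49 for SREBF1 (unadjusted p = 0.0433). Leaving out black replicate 2 instead gave 0.10 for SREBF2 and 0.06 for SREBF1, and leaving out black replicate 3 gave 0.17 and 0.05. INSIG1, which encodes the protein that holds the SREBP precursors in the endoplasmic reticulum, stood at 30.5, 97.2 and 60.2 CPM against 44.3, 61.4 and 70.6 CPM. Black replicates 1 and 2 were thus the lowest and the highest of all libraries for INSIG1, and its log2 fold change of 0.09 (SE 0.41) was -0.38 without black replicate 2.

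Of the 5 mevalonate-pathway members present, 3 had a higher and 2 a lower fitted level in the black libraries, and the list had a median log2 fold change of 0.19 against 0.02 over all genes tested. HMGCS1, the synthase that makes HMG-CoA, had the highest level of them at 191, 288 and 372 CPM in the black libraries, against 252, 384 and 314 CPM in the white libraries (log2 fold change -0.16, SE 0.30). The groups overlapped widely. FDPS, which makes farnesyl diphosphate, had the largest fold change of the list, at 61.3, 92.5 and 122 CPM against 67.7, 69.0 and 68.2 CPM (log2 fold change 0.43, SE 0.25). The white libraries nearly coincided for FDPS, whereas the highest and lowest library, both black, differed by a factor of 2.00. Without black replicate 1 its log2 fold change was 0.65 (edgeR unadjusted p = 0.00351), and without black replicate 3 it was 0.17. The kinases MVK and PMVK, which phosphorylate mevalonate and its phosphate, averaged 32.7 ± 13.5 against 33.3 ± 1.68 CPM and 5.76 ± 1.88 against 4.90 ± 0.441 CPM in black-coated and white-coated skin (SD, n = 3 each). MVD, the decarboxylase that follows them, averaged 53.3 ± 19.7 against 46.8 ± 5.63 CPM.

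From squalene to cholesterol, 6 of 9 members had a higher and 3 a lower fitted level in the black libraries, and the list had a median log2 fold change of 0.04. SQLE, the epoxidase that commits squalene to sterols, stood at 108, 166 and 194 CPM in the black libraries, against 124, 172 and 159.6 CPM in the white libraries (log2 fold change 0.04, SE 0.26). Black-coated skin held both the lowest and the highest value. NSDHL, which takes part in removing the methyl groups at carbon 4 of the sterol ring, had the largest fold change, at 42.9, 50.3 and 68.2 CPM against 33.2, 43.9 and 37.8 CPM (log2 fold change 0.49, SE 0.22, edgeR unadjusted p = 0.0633). Black replicate 1 alone, at 42.9 CPM, lay within the white range. SC5D, a desaturase near the end of the pathway, had the lowest fold change at 67.7, 44.1 and 66.9 CPM against 48.2, 73.2 and 70.8 CPM (log2 fold change -0.11, SE 0.25). The steadiest member was FDFT1, the squalene synthase, at 104 ± 2.89 CPM in the black libraries and 97.3 ± 8.20 CPM in the white ones (SD, n = 3 each), a factor of 1.20 between its highest and lowest library. DHCR7, the last reductase of the pathway, averaged 83.8 ± 34.8 against 71.5 ± 14.3 CPM, and MSMO1, LSS, EBP and HSD17B7 had log2 fold changes of 0.04, -0.06, -0.07 and 0.07.

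In most sterol genes, black replicates 1 and 2 lay on opposite sides of the mean of the other 5 libraries. MVK, MVD, FDPS, SQLE, NSDHL and DHCR7 stood at 0.488 to 0.918 times the mean of the other 5 libraries in black replicate 1 and at 1.09 to 1.41 times in black replicate 2. PMVK, LSS, HSD17B7, EBP and SC5D did the reverse, at 1.02 to 1.35 times in black replicate 1 and 0.448 to 0.733 times in black replicate 2. HMGCS1 and MSMO1 were below the mean of the other 5 libraries in both black replicates, and FDFT1 was above that mean in both. These groups were read from the values and carry no test. Each of the 2 libraries is part of the mean that the other is set against, which builds in some of the opposition. Some of the values also lay within the white range, such as NSDHL in black replicate 1 (42.9 CPM, white 33.2 to 43.9 CPM) and SQLE in black replicate 2 (166 CPM, white 124 to 172 CPM). Black replicate 1 had the low hair shaft markers given above, and black replicate 2 the low ester genes described further on, and their part in this division was not tested.

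The genes described as the absent sterol enzymes had fold changes within the range of the other sterol genes. LOC102191533, described as isopentenyl-diphosphate isomerase, stood at 61.9, 79.0 and 95.4 CPM in the black libraries, against 61.9, 83.1 and 84.2 CPM in the white libraries (log2 fold change 0.04, SE 0.22). LOC102177400, described as lanosterol demethylase, stood at 53.4, 67.6 and 100.4 CPM against 58.1, 77.4 and 79.3 CPM (log2 fold change 0.05, SE 0.27). Both had overlapping groups with black replicate 3 highest.

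In fatty acid synthesis 3 of 5 members had a higher fitted level in the black libraries (SCD, ACACA and FASN), and the median log2 fold change was 0.45. SCD, the desaturase that makes oleate and palmitoleate, stood at 262, 167 and 269 CPM in the black libraries, against 100.3, 111 and 84.1 CPM in the white libraries. All black libraries lay above all white ones, as they did in 3.81% of all genes tested. The log2 fold change of SCD was 1.24 (SE 0.24, edgeR unadjusted p = 0.00132, adjusted p = 0.834), and the DESeq2 adjusted p was 0.00449. The 7 sweat gland markers summed to 3827, 2015 and 782 CPM in the black libraries, against 563, 331 and 267 CPM in the white ones. They went both ways, 4 with a higher and 3 with a lower fitted level, at log2 fold changes from -2.42 to 5.67. At an unadjusted p under 0.05 in edgeR 2 were higher and 1 lower, against 1.65% and 1.75% of all genes. Their part in the levels of SCD and of ACSM5, described further on, was not tested. The adjusted p of SCD ran from 0.00449 to 1 over the alternatives, and the log2 fold change from 1.13 to 1.42 when each library was left out in turn. FASN, the fatty acid synthase, took the most reads of the list, a ranking not scaled for length, at 613, 352 and 488 CPM against 368, 361 and 338 CPM (log2 fold change 0.45, SE 0.25). Black replicate 2 lay inside the white range, and without that library the log2 fold change was 0.62 (edgeR unadjusted p = 0.0277), and without black replicate 1 it was 0.24. ACACA, the carboxylase that makes malonyl-CoA, followed the same order, at 105, 64.8 and 90.9 CPM against 55.2, 75.0 and 57.7 CPM (log2 fold change 0.47, SE 0.23). Its log2 fold change was 0.64 without black replicate 2 (edgeR unadjusted p = 0.0214) and 0.32 without black replicate 1.

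The other members of the fatty acid synthesis list, ME1 and ACLY, had log2 fold changes below 0, each smaller than its SE. ME1, a malic enzyme that supplies NADPH, stood at 19.7, 105 and 84.7 CPM in the black libraries, against 79.3, 83.8 and 87.9 CPM in the white libraries. Black replicate 1 was at 0.224 times the mean of the other 5 libraries, while black replicate 2 lay above the white range and black replicate 3 inside it. The log2 fold change of ME1 was -0.26 (SE 0.53) and turned to 0.18 without black replicate 1. ACLY, the citrate lyase, averaged 125 ± 28.7 CPM in the black libraries and 128 ± 12.5 CPM in the white ones (SD, n = 3 each, log2 fold change -0.03, SE 0.21). Without black replicate 1 all 5 members of the list had a log2 fold change above 0.

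**Figure D2:**
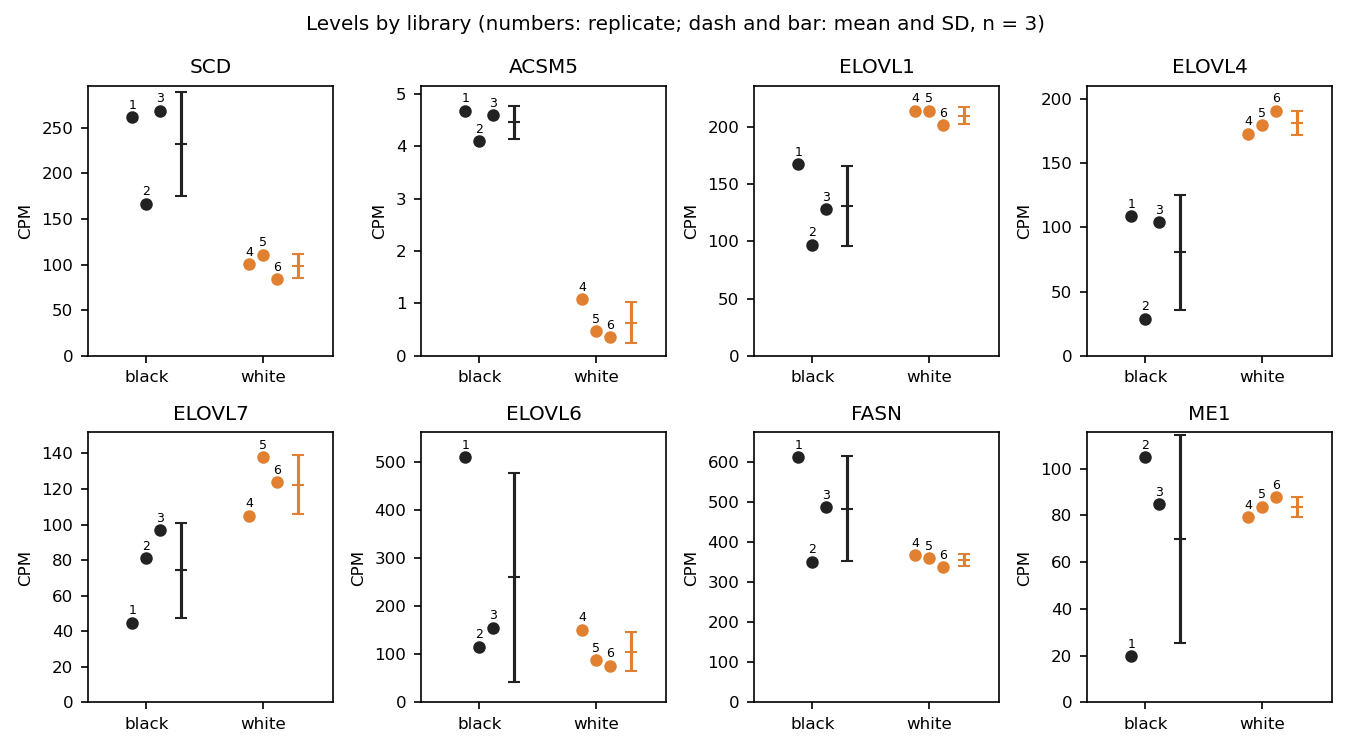
CPM (y axis) of 8 members of the fatty acid arm in black-coated and white-coated skin (x axis); points are libraries with their replicate number, and the dash and bar beside them are the mean and SD of 3 libraries. SCD and ACSM5 lie higher and ELOVL1, ELOVL4 and ELOVL7 lower in all black libraries, while ELOVL6 at 509.9 CPM and ME1 at 19.7 CPM stand apart in black replicate 1.

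The elongases divided by member. ELOVL1, which lengthens saturated and monounsaturated chains for ceramides, stood at 167, 97.0 and 128 CPM in the black libraries, against 214, 214 and 201 CPM in the white libraries (log2 fold change -0.68, SE 0.23, edgeR unadjusted p = 0.0212). ELOVL4, which makes the ultra-long chains of barrier ceramides, stood at 109, 28.9 and 104 CPM against 173, 179.7 and 191 CPM (log2 fold change -1.17, SE 0.46, unadjusted p = 0.0394). ELOVL7, an elongase of saturated chains, stood at 44.8, 81.2 and 96.8 CPM against 105, 138 and 124 CPM (log2 fold change -0.72, SE 0.29, unadjusted p = 0.0443). In these 3 genes all black libraries lay below all white ones, as in 4.99% of all genes tested. Which black library was lowest differed among them, black replicate 2 for ELOVL1 and ELOVL4 and black replicate 1 for ELOVL7. Without black replicate 2 the log2 fold change of ELOVL4 was -0.78 (edgeR unadjusted p = 0.00531), and without black replicate 1 that of ELOVL1 was -0.90 (unadjusted p = 9.66e-04). That of ELOVL1 was -0.51 without black replicate 2.

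The 9 tested markers of the suprabasal epidermis all had a lower fitted level in black-coated skin and summed to 430, 933 and 1453 CPM in the black libraries, against 3343, 2081 and 1436 CPM in the white libraries. Their part in the lower elongase levels was not tested.

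ELOVL6, which lengthens palmitate to stearate, stood at 509.9, 116 and 155 CPM in the black libraries, against 151, 88.3 and 76.6 CPM in the white libraries (log2 fold change 1.30, SE 0.59, edgeR unadjusted p = 0.0634). Black replicate 1 was 4.35 times the mean of the other 5 libraries, and without it the log2 fold change was 0.36. ELOVL3, an elongase of sebaceous gland and hair follicle in mice, had the highest FPKM of this list over the 6 libraries and stood at 139, 184 and 226 CPM against 183, 262 and 271 CPM (log2 fold change -0.39, SE 0.26), with overlapping groups. ELOVL5, which acts on polyunsaturated chains, was the only member of this list higher in all black libraries, at 38.2 ± 4.42 against 31.2 ± 2.51 CPM (SD, n = 3 each, log2 fold change 0.29, SE 0.17). FADS1 and FADS2, the front-end desaturases of polyunsaturated fatty acids, averaged 49.1 ± 20.8 against 43.6 ± 1.13 CPM and 9.47 ± 3.23 against 7.83 ± 3.15 CPM, and without black replicate 1 FADS1 had a log2 fold change of 0.48 (edgeR unadjusted p = 0.0113).

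Scaled by transcript length as FPKM and summed over the transcripts of a gene, ELOVL3 (99.8 ± 22.8 in the black and 129 ± 24.4 in the white libraries) and ELOVL1 (77.9 ± 28.9 and 121 ± 9.59) were the most abundant elongases. In black-coated skin SCD at 139.9 ± 45.9 FPKM had the highest mean of all members, and in white-coated skin, at 54.0 ± 8.35 FPKM, it came below ELOVL3, ELOVL1 and HMGCS1 (SD, n = 3 each). HMGCS1 averaged 82.0 ± 26.4 and 86.7 ± 18.8 FPKM, the highest of the sterol arm in both regions. Where SDs overlap the order of neighbours does not exceed their spread.

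Among the acyl-CoA synthetases, which activate fatty acids for further use, ACSM5 had the largest fold change of all members. ACSM5, a mitochondrial synthetase of medium-chain acids in humans, had 66, 57 and 106 reads in the black libraries, against 19, 8 and 5 reads in the white libraries, or 4.68, 4.09 and 4.59 CPM against 1.08, 0.470 and 0.354 CPM. The groups lay far apart on a low level, and black replicate 1 did not stand out. White replicates 5 and 6 had too few reads to pass the filter, so ACSM5 was tested only through its black libraries. The log2 fold change was 2.78 (SE 0.50, edgeR unadjusted p = 8.35e-04, adjusted p = 0.834), with an adjusted p from 7.48e-05 (DESeq2) to 1 over the alternatives, and it ranged from 2.51 to 3.40 when each library was left out in turn. On log2(FPKM + 1), a scale that understates changes of low genes, the difference was 0.96. ACSL3, a long-chain synthetase of the endoplasmic reticulum and lipid droplets, had the highest level of the list, at 70.5, 134 and 141 CPM against 125, 154 and 151 CPM (log2 fold change -0.32, SE 0.28). ACSL1, the long-chain synthetase best known from fat and liver, stood at 103, 52.6 and 88.6 CPM against 119, 103 and 104 CPM (log2 fold change -0.42, SE 0.26). For ACSL1 all black libraries were below all white ones, black replicate 1 only narrowly, and without that library the log2 fold change was -0.62 (edgeR unadjusted p = 0.0265). Leaving out black replicate 2 instead gave -0.20.

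**Figure D3:**
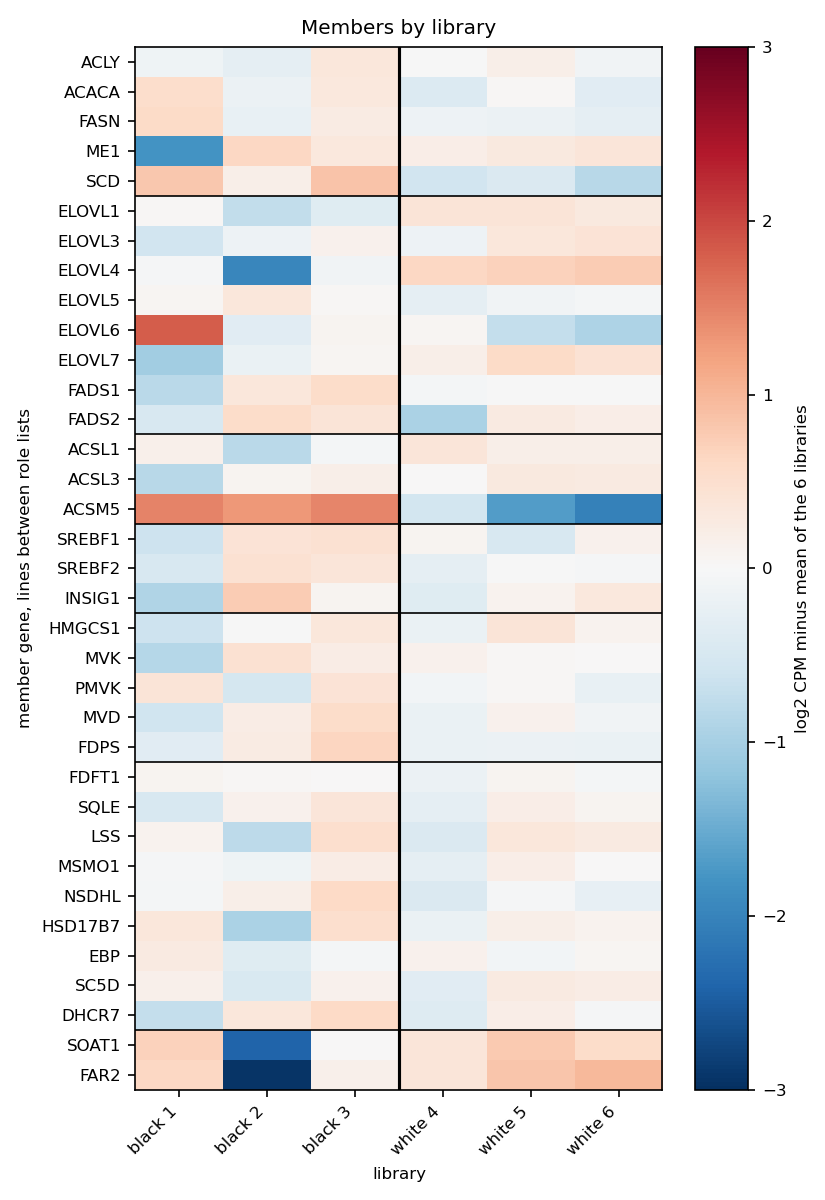
Log2 CPM of each tested member (rows, lines between role lists) in each library (columns, black left of the line and white right of it), relative to the mean of the 6 libraries. FAR2, SOAT1 and ELOVL4 are lowest in black replicate 2 and ME1 in black replicate 1; ACSM5 is high in all 3 black libraries.

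The genes of sebum esters showed the widest departure of a single library. FAR2, the reductase that makes the fatty alcohols of wax esters, stood at 194, 16.6 and 141 CPM in the black libraries, against 165, 226 and 250.0 CPM in the white libraries. SOAT1, which esterifies cholesterol, stood at 90.3, 10.5 and 56.7 CPM against 72.3, 96.2 and 82.0 CPM. In black replicate 2 FAR2 was at 0.0852 times and SOAT1 at 0.132 times the mean of the other 5 libraries, whereas black replicate 1 lay within the white range for both. The log2 fold changes were -0.86 (SE 0.74) and -0.67 (SE 0.65), and -0.36 and -0.19 without black replicate 2. They were -1.43 and -1.30 without black replicate 1, and -2.14 and -1.65 in limma-voom with library quality weights. Of the 35 tested members, FAR2, SOAT1, ELOVL4 and HSD17B7 lay at least 1 log2 unit below the mean of the other 5 libraries in black replicate 2 (6.73% of all genes tested), the first 3 of them at least 2 units (1.5%). In black replicate 1 the members at least 1 unit below were ME1, ELOVL7, INSIG1 and MVK (10.4% of all genes), with ME1 alone at 2 units (4.07%).

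Acyltransferase genes found by description had the same low library. LOC102173866, LOC102179090 and LOC102190037 are each described as 2-acylglycerol O-acyltransferase 2, the MOGAT2 enzyme that makes diacylglycerol, and the last 2 are direct neighbours in the ARS1.2 assembly. LOC102173866 stood at 163, 12.5 and 121 CPM in the black libraries, against 161, 186 and 187 CPM in the white libraries. LOC102179090 stood at 42.1, 5.09 and 30.2 CPM against 46.3, 46.5 and 42.7 CPM, and LOC102190037 at 9.01, 0.861 and 6.15 CPM against 12.2, 16.9 and 12.2 CPM. Black replicate 2 was at 0.0762 to 0.123 times the mean of the other libraries in these genes, and reads may be split among them if their sequences are close. Their log2 fold changes were -0.85, -0.81 and -1.36, and -0.34, -0.33 and -0.87 without black replicate 2. Further lipid genes outside the members, chosen after their values were seen, were also low in black replicate 2. Their list, of other ester and wax genes, had 4 of 9 tested genes lowest in black replicate 2 and as many as 4 lowest in black replicate 1. AWAT1, a wax ester synthase, stood at 6.95, 0.143 and 0.520 CPM in the black libraries, against 5.46, 6.58 and 7.37 CPM in the white ones, and was thus low in black replicate 3 as well. DGAT2L6, an acyltransferase of the same family, stood at 6.03, 0.430 and 3.81 CPM against 5.75, 4.17 and 6.73 CPM.

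The sebaceous gland markers (11 present of 12 listed, 9 tested, none of them a member) had 6 of the 9 tested genes lowest in black replicate 2. Their sum was 679, 471 and 701 CPM in the black libraries, against 1027, 913 and 943 CPM in the white libraries, lower in all black libraries. Of the 9 tested, 3 had a higher and 6 a lower fitted level, with a median log2 fold change of -0.13, and PLIN2 and KRT79 carried most of the difference in the sums. KRT79, a keratin of the sebaceous duct, was at 130.1, 21.2 and 105 CPM against 240.4, 150.4 and 155 CPM, and MC5R, the melanocortin receptor of sebocytes, at 112, 48.6 and 95.2 CPM against 66.0, 60.2 and 53.8 CPM. PLIN2, which coats lipid droplets, stood at 222, 107 and 211 CPM against 444, 409 and 439.8 CPM (log2 fold change -1.26, SE 0.30, edgeR unadjusted p = 0.00399), and CIDEA, another lipid droplet protein, had a log2 fold change of -0.89 (SE 0.25, unadjusted p = 0.00852). GAL had 2 to 7 reads in every library, and PLIN5 had 2 reads in black replicate 2 and 0 in the others. The adipocyte markers (11 present of 12 listed, LEP with 0 reads in all libraries) summed to 394, 177 and 219 CPM against 259 to 317 CPM. The part of the number of sebaceous or fat cells in the ester gene levels was not tested.

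**Figure D4:**
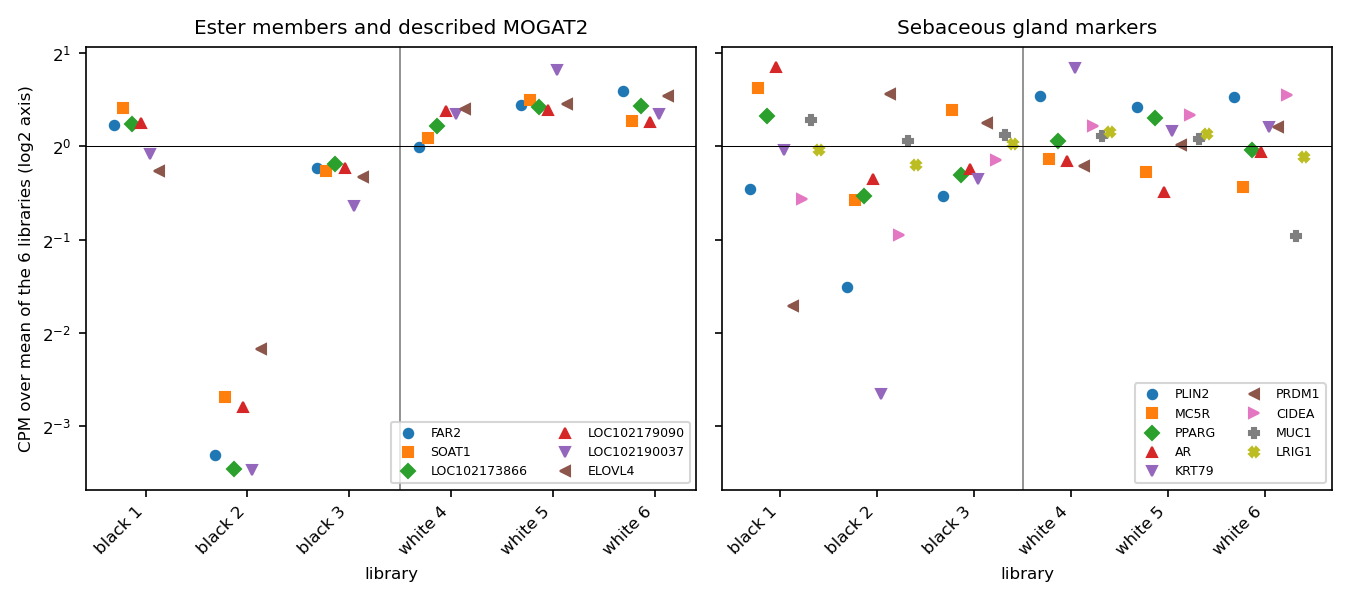
CPM over the mean of the 6 libraries (log2 y axis) by library (x axis, black left of the line and white right of it) for FAR2, SOAT1, ELOVL4 and the genes described as MOGAT2 (left) and for 9 sebaceous gland markers (right). All 6 genes on the left are lowest in black replicate 2; on the right KRT79 and PLIN2 share that low, among others, and PRDM1 is lowest in black replicate 1.

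Other genes of fatty acid and ester synthesis were counted in the same edgeR fit, which called 0 of the 15778 genes tested. Of 23 other fatty acid genes tested, 12 had a higher and 11 a lower fitted level in the black libraries. Over all genes 53% had a log2 fold change above 0. The median log2 fold change of the 23 was 0.03, and 0 had an unadjusted p under 0.05. Of 9 other ester and wax genes tested, 8 had a lower fitted level, with a median log2 fold change of -0.31 and 0 at an unadjusted p under 0.05. Over all genes 1.65% were higher and 1.75% lower at that threshold, so a count of 0 in lists this short says little.

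Set side by side, the sterol arm (mevalonate steps and squalene to cholesterol) and the fatty acid arm (synthesis, elongation and desaturation, and acyl-CoA synthetases) had medians that did not differ beyond their spread. The median log2 fold change was 0.05 over 14 sterol genes and 0.07 over 16 fatty acid genes, against 0.02 over all genes tested, a difference of -0.02 between the arms. The spread of single members was not compared by a test. The sterol genes ran from -0.16 to 0.49 with 0 members at an unadjusted p under 0.05 and 0 with groups that did not overlap. The fatty acid genes ran from -1.17 to 2.78, with 2 higher and 3 lower at an unadjusted p under 0.05, against 1.65% and 1.75% of all genes, and with 3 higher and 4 lower in groups that did not overlap, against 3.81% and 4.99%. Without black replicate 1, 4 of the 14 sterol genes were at an unadjusted p under 0.05, all higher: MVD, FDPS, NSDHL and DHCR7. In that fit 4.77% of all genes were higher at that threshold.

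Per library, the mean log2 CPM of the sterol arm relative to all 6 libraries was -0.17, -0.11 and 0.36 in black replicates 1 to 3 and -0.21, 0.13 and 0.00 in the white libraries. That of the fatty acid arm was -0.01, -0.09 and 0.28 against -0.08, 0.01 and -0.10. Black replicate 3, which also had the most reads, was the highest library in both arms. The sterol arm minus the fatty acid arm averaged -0.03 ± 0.12 in the black libraries and 0.03 ± 0.14 in the white ones (SD, n = 3 each). With fatty acid synthesis alone in place of the whole fatty acid arm, an arm chosen after the data were seen, the median log2 fold change was 0.45 and the sterol arm lay 0.39 below it (difference -0.39).

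**Figure D5:**
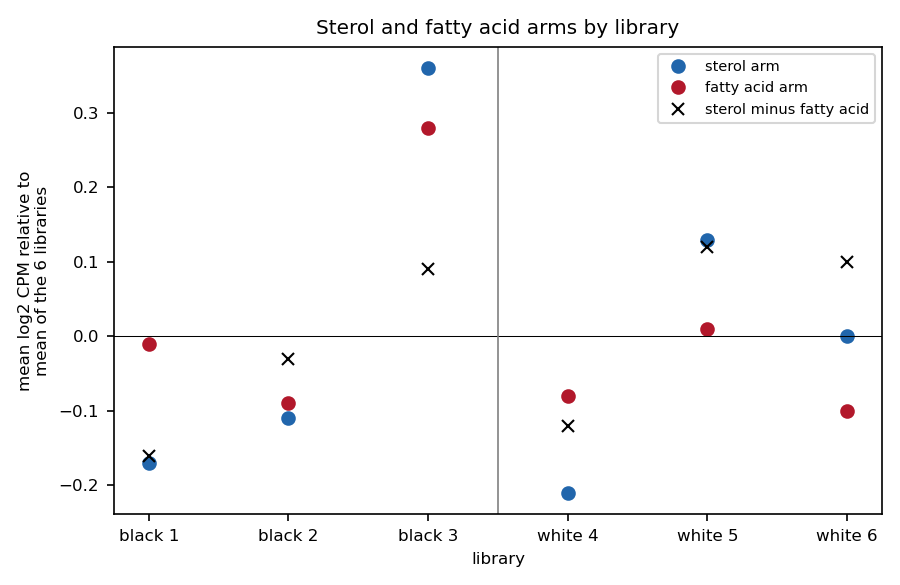
Mean log2 CPM of the tested sterol genes and fatty acid genes, relative to the mean of the 6 libraries, and their difference (y axis) by library (x axis, black left of the line and white right of it). Both arms are highest in black replicate 3, and the difference lies between -0.16 and 0.12 in the 6 libraries, with black and white libraries overlapping.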

How the data were processed

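The authors deposited counts of reads and FPKM, which adjust for transcript length and depth, for each transcript, per the file headers. Bowtie2 2.0.6, HISAT2 and Cufflinks are named in the submitters' notes with no roles. No source used here states the counting program, build, annotation or strand setting, so overlapping genes cannot be told apart. Of 53266 transcript rows, 189 with no gene name (at most 0.0675% of a library) and transfer RNA rows (at most 0.000467%) were dropped. A gene's rows repeat nearly one count (lowest at least 90% of highest in 15 of 18 members with several rows), so its largest row was used, and FPKM were summed over rows. Unused sample columns numbered 0.

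Black over white was tested by edgeR 4.0.16 under R 4.3.3 (filterByExpr, TMM, robust quasi-likelihood, Benjamini-Hochberg over 15778 genes, threshold 0.05). SE is the log2 fold change over the square root of F. Log2 CPM used a prior count of 1. Alternatives used DESeq2 1.42.0 and limma 3.58.1. On simulated counts of these genes, 12% of 50 genes changed 2-fold, 72% at 4-fold and 98% at 16-fold were called, with 10 unchanged among 151 calls. On the measured counts the same test called 0 of 15778 genes, among them 0 of the 9 melanocyte markers (median log2 fold change 7.85). The called percentages above therefore do not give its power in the measured libraries. Members and lists were chosen with earlier results of these data known. Members given in full had an unadjusted p under 0.05, the highest level or an extreme fold change in their list, or were among 7 set genes. All 36 members matched the ARS1.2 RefSeq table by transcript, which gave names and neighbours only. Sterol genes outside the members are not reported here.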

Additional observations from a re-analysis of the deposited data

How the results depend on the processing

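No paired analysis was made, because the labels name no animal and the replicate numbers of the 2 groups (1 to 3 and 4 to 6) share no value. By their Y-linked reads, black replicates 1 and 3 (1 and 0 reads) came from other animals than the white libraries (767 to 934 reads). Over all genes, 78 were called by DESeq2, 3 by limma-voom with library quality weights (chosen after seeing the data) and between 0 and 16 without each library in turn; edgeR called 0, with 260 higher and 276 lower at an unadjusted p under 0.05. Of the members, DESeq2 called 2 (SCD and ACSM5) and every other setting called 0. Members higher at an unadjusted p under 0.05 numbered 4 with quality weights and 2 to 9 with a library left out, and members lower numbered 6 with quality weights, 1 with library totals and 0 to 4 with a library left out. With a library left out, the median log2 fold change ran from -0.07 to 0.14 in the sterol arm, from -0.15 to 0.21 in the fatty acid arm, and their difference from -0.12 to 0.08. With fatty acid synthesis alone that median was 0.45 and the difference -0.39. Of 595 alternative values of single members, 556 kept the direction and the side of the threshold, 2 gained a call and 37 turned in direction, over 15 members. As every setting but DESeq2 called 0 members, the side of the threshold could hardly change, and these counts bear mainly on direction. With library totals ACLY and LSS were each at 0.01, and limma-voom put INSIG1 at -0.03. Quality weights put MVK at 0.18, MSMO1 at -0.01 and HSD17B7 at -0.24. On log2(FPKM + 1) MVK was at 0.04, HSD17B7 at -0.01 and EBP at 0.00, and on log2(FPKM + 0.1) MVK was at 0.03 and HSD17B7 at -0.05. With each library left out in turn, log2 fold changes ran from -0.23 to 0.08 for ACLY, -0.68 to 0.18 for ME1, -0.08 to 0.48 for FADS1, -0.03 to 0.53 for FADS2 and -0.38 to 0.42 for INSIG1. Among sterol genes they ran from -0.40 to 0.06 for HMGCS1, -0.29 to 0.27 for MVK, -0.07 to 0.45 for MVD, -0.15 to 0.24 for SQLE, -0.37 to 0.21 for LSS, -0.07 to 0.15 for MSMO1, -0.20 to 0.39 for HSD17B7, -0.25 to 0.07 for EBP, -0.28 to 0.06 for SC5D and -0.03 to 0.53 for DHCR7. The cause was not tested. Depth limits the low members, AWAT2 and ACSM5, most.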
